A study of Homo sapiens with 8 samples.

Results

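The 44 genes described here carry out the 2 linked RNA programmes by which cells answer misfolded protein and shortage of amino acids, the unfolded protein response and the integrated stress response. They were chosen by name, with earlier results of these data known. Each was matched through its transcript identifiers to 1 row of the 20165 rows in the count tables, and all 44 passed the filter on low counts. They fall into an ATF4 and amino acid arm of 22 genes, an endoplasmic reticulum (ER) chaperone arm of 18 genes targeted by ATF6 and XBP1, and 4 sensors.

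RNA was sequenced from OVCAR3, an established human ovarian carcinoma cell line, in 8 libraries that form 4 groups of 2 replicates. For siControl and siTARG1, cells were given siRNA at 30 nM for 48 h, either a control or siRNA directed at OARD1. This is the gene of TARG1, an enzyme that removes mono(ADP-ribose) from proteins. The study lists a pair of TARG1 siRNAs, and the labels do not say which was used here. For RACK1-WT and RACK1-Mut, 1 µg/ml doxycycline for 48 h induced both an shRNA against endogenous RACK1, a scaffold protein of the small ribosomal subunit, and an HA-tagged RACK1, either wild type or mutated at its mono(ADP-ribose) acceptor sites. Both RACK1 lines thus carry the knockdown, were made by lentiviral transduction, and received doxycycline, which the siRNA-transfected cells did not. According to the study's methods, puromycin and G418 were used to select the transduced cells. No stressor is named in the labels for these libraries. The levels are read here as those of cells without an added stressor, under the transfection or induction described above. The labels do not describe how replicates were made, and the study's methods state in general terms that its sequencing used independent biological samples. The p-values rest on the spread between the 2 samples of a group, estimated jointly over all 8 libraries and in part shared between genes.

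In the integrated stress response, kinases such as PERK (EIF2AK3) and GCN2 (EIF2AK4) phosphorylate the initiation factor eIF2, which lowers general translation while ATF4 mRNA is translated more. ATF4 protein, often paired with CEBPB, CEBPG or DDIT3 (CHOP), then activates genes for amino acid synthesis, amino acid uptake and negative feedback. In the unfolded protein response, IRE1 (ERN1) splices XBP1 mRNA and ATF6 is released by cleavage, and both factors activate genes for chaperones and for degradation of ER proteins. ATF4 and XBP1 are regulated largely after transcription, and exon counts measure neither ATF4 protein nor the spliced share of XBP1 mRNA.

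The promoter letters through which these factors act differ between the arms, and the sites shown here come from genes whose RNA changed in the siTARG1 libraries. RefSeq promoters (GRCh38.p14, 250 bases before to 50 after the start) were held for 41 of the 44 genes, PSPH, SHMT2 and SLC7A11 being the others. The ER stress element (ERSE, CCAAT and CCACG with 9 free bases between them, either strand) was present in 25 of 27305 genes with a promoter (0.0916%), in 7 of the 18 ER chaperone genes (CALR, CANX, CRELD2, HSP90B1, HSPA5, PDIA6 and XBP1) and in 0 of 19 genes of the ATF4 arm. ERSE-II (ATTGG and CCACG with 1 free base between them) was present in 19 genes (0.0696%), 3 of them in the ER arm (HERPUD1, HYOU1 and SDF2L1). The unfolded protein response element (UPRE, TGACGTGG) was present in 253 genes (0.927%). It was found in only 1 of the 18 ER chaperone genes, HYOU1, and in 0 of 19 genes of the ATF4 arm. Capitals mark the letters matched in these 30-base stretches, written 5′ to 3′ on the gene's own strand: HSPA5 at chr9:125241385-125241414 (minus strand), PDIA6 at chr2:10812847-10812876 (minus), XBP1 at chr22:28800597-28800626 (minus) and HYOU1 at chr11:119057264-119057293 (minus). The HYOU1 match is to the reverse complement of ERSE-II.
HSPA5: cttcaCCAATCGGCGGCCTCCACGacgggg
PDIA6: ccggaCCAATGAGCCGCAGCCACGgcttgg
XBP1: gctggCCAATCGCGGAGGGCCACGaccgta
HYOU1: ggcctgggaCGTGGTCCAATgagtacgcgc

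For the ATF4 arm the letters of a C/EBP-ATF response element (TGATGNAAT) matched 333 genes (1.22%) and 0 of the 41. The shorter letters TGATGNAA, tried after this was seen, matched 1217 genes (4.46%), 6 of 19 genes of the ATF4 arm (ASNS, ATF3, CEBPG, CHAC1, PPP1R15B and SLC3A2) and HERPUD1 in the ER arm. The sites are shown for CEBPG at chr19:33374060-33374089 (plus strand) and CHAC1 at chr15:40953251-40953280 (plus), whose RNA rose in the siTARG1 libraries under every alternative, and for ASNS at chr7:97872458-97872487 (minus), whose lower level depended on 1 siControl library. The CHAC1 match is to the reverse complement. A match is a description of the letters and not evidence of binding.
CEBPG: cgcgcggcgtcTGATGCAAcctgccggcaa
CHAC1: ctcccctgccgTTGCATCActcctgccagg
ASNS: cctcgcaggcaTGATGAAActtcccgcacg

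Each library held between 30989049 and 42668783 exon counts, and the 44 genes were well covered, from 83 counts for ATF3 to 69540 for CANX in a single library. Counts were made on GRCh37, where ATF4 spans chr22:39915700-39918688 (plus strand), PSAT1 chr9:80912041-80945009 (plus), XBP1 chr22:29190543-29196585 (minus) and HSPA5 chr9:127997132-128003661 (minus), and exon counts cover their coding sequence and both UTRs. OARD1, the target of the siRNA, stood at 48.5 and 52.0 CPM (counts scaled to library size) in siControl and at 3.10 and 3.97 in siTARG1. RACK1 stood between 4241 and 4664 CPM in the 4 siRNA libraries and between 1397 and 1898 in the 4 libraries of the RACK1 lines, where endogenous and HA-tagged RACK1 counts cannot be told apart. Summed markers of leukocytes reached at most 2.99 CPM, those of endothelium 4.23 and those of fibroblasts 70.9. The fibroblast sum includes a row that PDGFRA shares with FIP1L1. Counts of these genes cannot be told apart, so the sum is not a measure of fibroblast RNA. Epithelial and ovarian carcinoma markers summed to between 3836 and 4023 CPM in siControl and in the RACK1 lines. They summed to 2568 and 2667 in siTARG1, where KRT8 and KRT18 were lower and CDH1 and KRT7 higher. The sum does not show that single markers also differed between RACK1-WT and siControl. There 8 of 9 passed an adjusted p of 0.05 by edgeR (63.3% of all rows did), 5 higher and 3 lower. Log2 fold changes of the 9 ran from -1.36 to 2.90. The part of the marker shift in siTARG1 in the changes of those libraries described next was not tested. In these bulk samples fewer cells with a transcript and less of it per cell cannot be told apart.

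The first comparison asks how RNA of the stress response genes differed between cells given TARG1 siRNA and cells given control siRNA. In siTARG1 against siControl, 26 of 44 genes (59.1%) passed an adjusted p of 0.05, while 46.6% of all 14024 rows tested did so. Of the 26, 20 were higher in siTARG1 (23.5% of all rows were) and 6 were lower (23.1% of all rows). The 44 genes had a median log2 fold change of 0.20, against 0.01 over all rows. Changes were small: 6 of the 26 exceeded 1.5-fold and 1, PSAT1, exceeded 2-fold. The ATF4 arm had 11 genes higher and 4 lower of 22 with a median of 0.27, the ER chaperone arm 6 higher and 2 lower of 18 with a median of 0.13, and 3 of the 4 sensors were higher. Adjusted p values come from the quasi-likelihood test of edgeR, adjusted over all rows tested by the Benjamini-Hochberg method, levels are CPM per library, and fold changes are on the log2 scale with standard error (SE, n = 2 libraries a group).

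**Figure D1:**
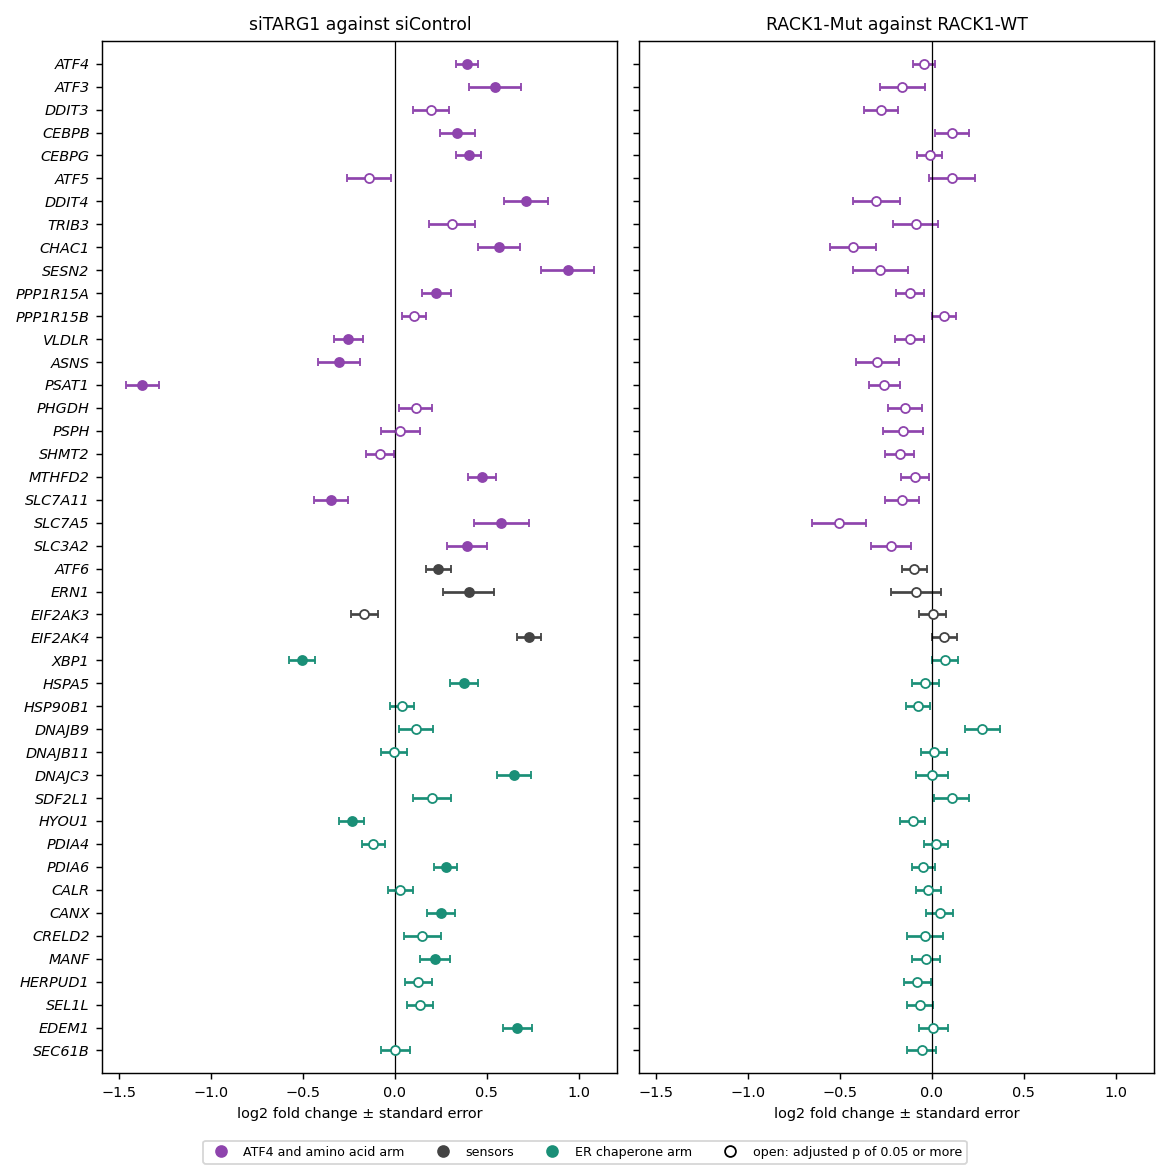
Log2 fold change of each of the 44 genes (x axis, points with ± SE, n = 2 libraries a group) for siTARG1 against siControl (left) and RACK1-Mut against RACK1-WT (right), with filled points for adjusted p under 0.05. PSAT1 lies farthest left at -1.37 and SESN2 farthest right at 0.94 in the left panel, and every point in the right panel is open.

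Among the transcription factors of the ATF4 arm, 4 of 6 were higher in siTARG1 and none passed the test in the other direction. ATF4, the central factor of the arm, stood at 402 and 402 CPM in siControl, 528 and 527 in siTARG1, 320.3 and 324 in RACK1-WT and 311 and 314 in RACK1-Mut. The siTARG1 libraries both exceeded the siControl ones for ATF4, and its change was 0.39 ± 0.062 on the log2 scale (edgeR adjusted p = 0.00015). ATF3, a stress-induced repressor and activator, was the least abundant of them in the siRNA groups at 3.21 and 2.71 CPM in siControl, 4.42 and 4.28 in siTARG1, 7.85 and 7.32 in RACK1-WT and 6.99 and 6.58 in RACK1-Mut. ATF3 lay above its siControl range in both siTARG1 libraries, by 0.54 ± 0.14 on the log2 scale (edgeR adjusted p = 0.0064). CEBPB, which partners ATF4 at many targets, stood at 98.0 and 90.2 CPM in siControl, 124 and 114 in siTARG1, 92.8 and 113 in RACK1-WT and 106 and 116 in RACK1-Mut. CEBPB was higher in both siTARG1 libraries than in either siControl library, and the change was 0.34 ± 0.093 on the log2 scale (edgeR adjusted p = 0.0082). CEBPG, another dimer partner, stood at 195 and 179.6 CPM in siControl, 239 and 256 in siTARG1, 156 and 151 in RACK1-WT and 151 and 153 in RACK1-Mut. The siTARG1 libraries both exceeded the siControl ones for CEBPG, by 0.40 ± 0.069 on the log2 scale (edgeR adjusted p = 0.00029). DDIT3, which encodes the death-associated factor CHOP, stood at 22.6 and 19.7 CPM in siControl, 26.6 and 22.1 in siTARG1, 47.3 and 48.3 in RACK1-WT and 38.7 and 40.2 in RACK1-Mut. DDIT3 levels overlapped between siTARG1 and siControl, and the difference of 0.20 ± 0.10 on the log2 scale (edgeR adjusted p = 0.12) did not pass, with a 95% interval from -0.018 to 0.41. ATF5, a factor whose translation is controlled like that of ATF4, stood at 6.60 and 7.26 CPM in siControl, 6.03 and 6.51 in siTARG1, 5.15 and 5.01 in RACK1-WT and 5.31 and 5.65 in RACK1-Mut, with a change of -0.14 ± 0.12 on the log2 scale (edgeR adjusted p = 0.37) that did not pass. Without siControl replicate 2 the log2 fold change was 0.45 for ATF3 (edgeR adjusted p = 0.059) and 0.29 for CEBPB (0.053).

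Of the 7 feedback and stress effector genes, 4 were higher and 1 was lower. SESN2, a leucine sensor that restrains mTORC1, stood at 21.5 and 15.6 CPM in siControl, 40.9 and 30.7 in siTARG1, 19.9 and 20.1 in RACK1-WT and 15.8 and 17.1 in RACK1-Mut. SESN2 was higher in both siTARG1 libraries than in either siControl library, with the largest increase among the 44 genes at 0.94 ± 0.14 on the log2 scale (edgeR adjusted p = 0.00011). DDIT4 (REDD1), another inhibitor of mTORC1, stood at 37.1 and 32.4 CPM in siControl, 65.5 and 48.7 in siTARG1, 24.7 and 25.6 in RACK1-WT and 19.1 and 21.7 in RACK1-Mut. The siTARG1 libraries both exceeded the siControl ones for DDIT4, by 0.71 ± 0.12 on the log2 scale (edgeR adjusted p = 0.00025). CHAC1, which degrades glutathione, stood at 12.1 and 12.1 CPM in siControl, 19.8 and 15.9 in siTARG1, 9.19 and 9.97 in RACK1-WT and 7.33 and 6.90 in RACK1-Mut. CHAC1 lay above its siControl range in both siTARG1 libraries, by 0.57 ± 0.11 on the log2 scale (edgeR adjusted p = 0.00096). PPP1R15A (GADD34), the inducible subunit that directs a phosphatase to eIF2, stood at 25.9 and 27.6 CPM in siControl, 30.6 and 31.8 in siTARG1, 39.1 and 41.5 in RACK1-WT and 38.1 and 36.1 in RACK1-Mut. PPP1R15A was higher in both siTARG1 libraries than in either siControl library, by 0.22 ± 0.079 on the log2 scale (edgeR adjusted p = 0.032). Its constitutive counterpart PPP1R15B stood at 222 and 221 CPM in siControl, 233 and 243 in siTARG1, 189.6 and 189 in RACK1-WT and 190.2 and 206 in RACK1-Mut, and its change of 0.10 ± 0.066 on the log2 scale (edgeR adjusted p = 0.22) did not pass. TRIB3, a pseudokinase that damps ATF4 activity, stood at 166 and 120.4 CPM in siControl, 197 and 159 in siTARG1, 214 and 214 in RACK1-WT and 195 and 208 in RACK1-Mut. TRIB3 levels overlapped between siTARG1 and siControl, and the change of 0.31 ± 0.12 on the log2 scale (edgeR adjusted p = 0.053) did not pass. That value ranged from 0.11 to 0.57 when 1 library was left out, and TRIB3 passed in 6 of 12 alternatives. VLDLR, a lipoprotein receptor, stood at 119 and 103 CPM in siControl, 94.7 and 91.7 in siTARG1, 84.0 and 80.6 in RACK1-WT and 72.8 and 78.4 in RACK1-Mut. VLDLR lay below its siControl range in both siTARG1 libraries, with a change of -0.25 ± 0.080 on the log2 scale (edgeR adjusted p = 0.018). Without siControl replicate 1 the VLDLR log2 fold change was -0.13 (edgeR adjusted p = 0.30) and that of PPP1R15A 0.19 (0.18), and without siTARG1 replicate 2 that of PPP1R15A was 0.19 (0.12).

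**Figure D2:**
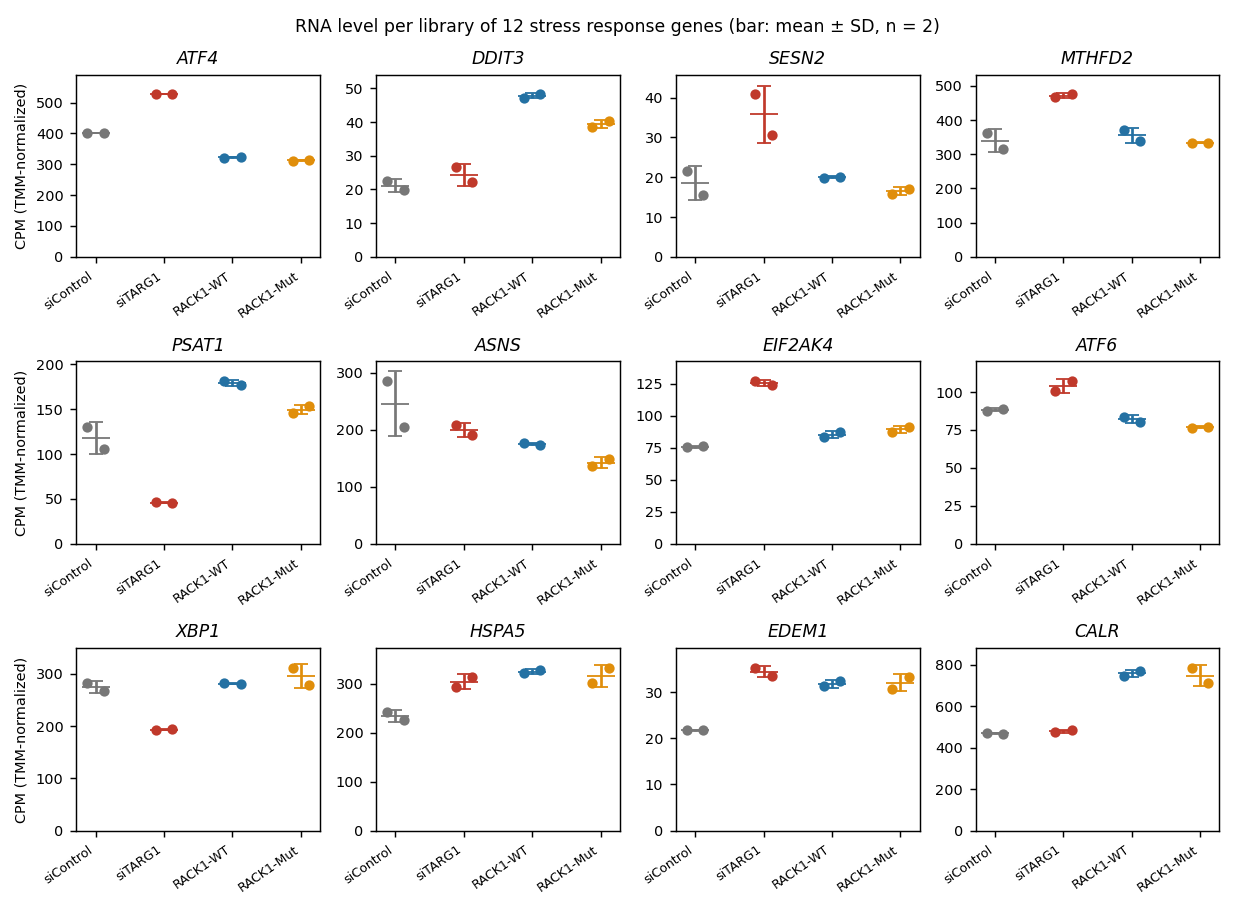
CPM (y axis from 0) of 12 of the genes in each library (points) of the 4 groups (x axis), with mean ± SD of 2 libraries. ATF4 and SESN2 are highest and PSAT1 and XBP1 lowest in siTARG1, while the siControl and siTARG1 points of CALR lie between 468 and 484 CPM.

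The genes for amino acid and one-carbon synthesis moved in both directions: 1 of 6 was higher and 2 were lower. PSAT1, the transaminase of serine synthesis, stood at 131 and 105 CPM in siControl, 46.0 and 45.1 in siTARG1, 182 and 177 in RACK1-WT and 146 and 153 in RACK1-Mut. PSAT1 was lower in both siTARG1 libraries than in either siControl library, the siTARG1 mean being 38.6% of the siControl mean, with the largest change of the 44 genes at -1.37 ± 0.090 on the log2 scale (edgeR adjusted p = 4.2e-08). PHGDH and PSPH, which catalyse the steps before and after PSAT1, did not pass, with changes of 0.11 ± 0.091 on the log2 scale (edgeR adjusted p = 0.34) and 0.028 ± 0.11 on the log2 scale (edgeR adjusted p = 0.85). ASNS, asparagine synthetase and a classical ATF4 target, stood at 286 and 206 CPM in siControl, 207 and 191 in siTARG1, 176 and 174 in RACK1-WT and 136 and 149 in RACK1-Mut. Replicate 1 of siControl lay well above the other 3 libraries, and the groups overlapped. The change of ASNS was -0.30 ± 0.11 on the log2 scale (edgeR adjusted p = 0.042), and without that library the log2 fold change was -0.035 with an adjusted p of 0.805 by the same edgeR test. Without siTARG1 replicate 2 it was -0.25 (0.12), and without siControl replicate 2 it was -0.51. MTHFD2, a mitochondrial folate enzyme, stood at 363 and 316 CPM in siControl, 467 and 476 in siTARG1, 371 and 339 in RACK1-WT and 332 and 334 in RACK1-Mut. The siTARG1 libraries both exceeded the siControl ones for MTHFD2, by 0.47 ± 0.077 on the log2 scale (edgeR adjusted p = 0.00018). SHMT2, which feeds serine into the same mitochondrial pathway, stood at 312 and 270.1 CPM in siControl, 287 and 263 in siTARG1, 214 and 219 in RACK1-WT and 190.1 and 193 in RACK1-Mut and its change of -0.082 ± 0.077 on the log2 scale (edgeR adjusted p = 0.41) did not pass. PHGDH stood at 288 and 233 CPM in siControl, 295 and 268 in siTARG1, 284 and 305 in RACK1-WT and 268 and 264 in RACK1-Mut, and PSPH at 32.2 and 27.7 CPM in siControl, 33.9 and 27.3 in siTARG1, 22.9 and 23.7 in RACK1-WT and 21.3 and 20.5 in RACK1-Mut.

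All 3 amino acid transporter genes passed, in both directions. SLC7A5 (LAT1), the importer of large neutral amino acids, stood at 143 and 109 CPM in siControl, 210.3 and 167 in siTARG1, 363 and 367 in RACK1-WT and 214 and 300.1 in RACK1-Mut. SLC7A5 lay above its siControl range in both siTARG1 libraries, by 0.58 ± 0.15 on the log2 scale (edgeR adjusted p = 0.0058). SLC3A2, the heavy chain shared by both transporters, stood at 151 and 122 CPM in siControl, 201 and 157 in siTARG1, 225 and 226 in RACK1-WT and 186 and 201 in RACK1-Mut. SLC3A2 was higher in both siTARG1 libraries than in either siControl library, by 0.39 ± 0.11 on the log2 scale (edgeR adjusted p = 0.01). SLC7A11 (xCT), the cystine importer, stood at 69.5 and 70.7 CPM in siControl, 50.6 and 59.5 in siTARG1, 51.5 and 45.5 in RACK1-WT and 41.0 and 45.5 in RACK1-Mut. The siTARG1 libraries were both under the siControl ones for SLC7A11, with a change of -0.35 ± 0.091 on the log2 scale (edgeR adjusted p = 0.0063). The SLC3A2 log2 fold change was 0.25 without siControl replicate 2 (edgeR adjusted p = 0.095) and 0.21 without siTARG1 replicate 1 (0.11), and that of SLC7A11 was -0.24 without the latter (0.052).

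Replicates within the siRNA groups were not level across the ATF4 arm. In siControl, 19 of its 22 genes were higher in replicate 1 than in replicate 2, with a median log2 ratio of 0.20 and the largest for ASNS at 0.47, and in siTARG1 16 of 22 were, with a median of 0.13. The ER chaperone arm had 9 of 18 and 6 of 18 such genes with medians of 0.0011 and -0.036. Without siControl replicate 1 the median log2 fold change of the ATF4 arm in siTARG1 was 0.36, and without siControl replicate 2 it was 0.18.

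Among the sensors, EIF2AK4 (GCN2), the kinase that detects uncharged tRNA, stood at 75.3 and 76.2 CPM in siControl, 127 and 124 in siTARG1, 83.2 and 87.4 in RACK1-WT and 87.3 and 91.5 in RACK1-Mut. EIF2AK4 lay above its siControl range in both siTARG1 libraries, by 0.73 ± 0.067 on the log2 scale (edgeR adjusted p = 9.7e-07). ERN1 (IRE1), the kinase and RNase that splices XBP1, was the gene with the lowest length-scaled level and stood at 6.80 and 5.17 CPM in siControl, 8.37 and 7.56 in siTARG1, 8.36 and 7.89 in RACK1-WT and 7.21 and 8.09 in RACK1-Mut. ERN1 was higher in both siTARG1 libraries than in either siControl library, by 0.40 ± 0.14 on the log2 scale (edgeR adjusted p = 0.028). ATF6, the membrane-bound factor released by cleavage, stood at 87.6 and 89.0 CPM in siControl, 101 and 107 in siTARG1, 83.8 and 80.2 in RACK1-WT and 76.2 and 77.2 in RACK1-Mut. For ATF6 both siTARG1 libraries exceeded both controls, by 0.24 ± 0.067 on the log2 scale (edgeR adjusted p = 0.01). EIF2AK3 (PERK), the eIF2 kinase of the ER, stood at 34.2 and 34.9 CPM in siControl, 30.3 and 31.2 in siTARG1, 46.4 and 47.9 in RACK1-WT and 48.3 and 46.4 in RACK1-Mut. EIF2AK3 lay below its siControl range in both siTARG1 libraries, but the change of -0.17 ± 0.073 on the log2 scale (edgeR adjusted p = 0.08) did not pass. Without siControl replicate 2 the ERN1 log2 fold change was 0.24 with an edgeR adjusted p of 0.241, and without siTARG1 replicate 1 it was 0.32 (0.12). ATF6 was at 0.24 without siControl replicate 1 (0.054), 0.18 without siTARG1 replicate 2 (0.064) and 0.13 in coding-sequence counts (0.19).

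The ER chaperone genes moved in both directions. XBP1, the factor spliced by IRE1, stood at 282 and 267 CPM in siControl, 192 and 195 in siTARG1, 282 and 281 in RACK1-WT and 312 and 279.8 in RACK1-Mut. XBP1 was lower in both siTARG1 libraries than in either siControl library, with a change of -0.51 ± 0.070 on the log2 scale (edgeR adjusted p = 4.8e-05). HSPA5 (BiP), the main ER chaperone of the HSP70 family, stood at 243 and 225 CPM in siControl, 292 and 314 in siTARG1, 321 and 328 in RACK1-WT and 300.2 and 332 in RACK1-Mut. For HSPA5 both siTARG1 libraries exceeded both controls, by 0.38 ± 0.074 on the log2 scale (edgeR adjusted p = 0.00086). DNAJC3, an ER co-chaperone of BiP, stood at 15.1 and 15.1 CPM in siControl, 22.2 and 25.1 in siTARG1, 29.3 and 26.8 in RACK1-WT and 27.6 and 28.4 in RACK1-Mut. DNAJC3 lay above its siControl range in both siTARG1 libraries, by 0.65 ± 0.092 on the log2 scale (edgeR adjusted p = 5.9e-05). HYOU1, a large HSP70-like chaperone that exchanges nucleotide on BiP, stood at 150.0 and 157 CPM in siControl, 130.5 and 130.1 in siTARG1, 157 and 158 in RACK1-WT and 140.4 and 153 in RACK1-Mut. HYOU1 was lower in both siTARG1 libraries than in either siControl library, with a change of -0.24 ± 0.067 on the log2 scale (edgeR adjusted p = 0.01), and without siControl replicate 2 its log2 fold change was -0.20 (edgeR adjusted p = 0.091). HSP90B1 (GRP94), the HSP90 of the ER, stood at 783 and 762 CPM in siControl, 784 and 806 in siTARG1, 1090.0 and 1081 in RACK1-WT and 1046 and 1015 in RACK1-Mut and differed by 0.040 ± 0.065 on the log2 scale (edgeR adjusted p = 0.64), which did not pass. The co-chaperone genes DNAJB9, DNAJB11 and SDF2L1 did not pass either, with log2 fold changes of 0.11, -0.0062 and 0.20.

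EDEM1, a lectin that sends misfolded glycoproteins to degradation, had the largest increase of the ER arm and stood at 21.7 and 21.7 CPM in siControl, 35.3 and 33.6 in siTARG1, 31.2 and 32.5 in RACK1-WT and 30.7 and 33.3 in RACK1-Mut. For EDEM1 both siTARG1 libraries exceeded both controls, by 0.67 ± 0.081 on the log2 scale (edgeR adjusted p = 1.3e-05). PDIA6, a disulfide isomerase, stood at 384 and 384 CPM in siControl, 455 and 474 in siTARG1, 472 and 474 in RACK1-WT and 466 and 449.8 in RACK1-Mut. PDIA6 lay above its siControl range in both siTARG1 libraries, by 0.28 ± 0.064 on the log2 scale (edgeR adjusted p = 0.0028). CANX, the membrane-bound lectin chaperone calnexin, stood at 1274 and 1357 CPM in siControl, 1469 and 1664 in siTARG1, 1371 and 1339.6 in RACK1-WT and 1387 and 1403 in RACK1-Mut. CANX was higher in both siTARG1 libraries than in either siControl library, by 0.25 ± 0.075 on the log2 scale (edgeR adjusted p = 0.014). Without siTARG1 replicate 2 the CANX log2 fold change was 0.15 (edgeR adjusted p = 0.15), and without siControl replicate 1 it was 0.22 (0.097). MANF, a secreted factor released under ER stress, stood at 31.1 and 33.1 CPM in siControl, 36.1 and 38.5 in siTARG1, 60.8 and 65.7 in RACK1-WT and 59.9 and 63.97 in RACK1-Mut. For MANF both siTARG1 libraries exceeded both controls, by 0.22 ± 0.080 on the log2 scale (edgeR adjusted p = 0.037), and without the same libraries its log2 fold change was 0.16 (0.17) and 0.18 (0.19). Calnexin's soluble relative CALR stood at 469.9 and 468 CPM in siControl, 474 and 484 in siTARG1, 746 and 772 in RACK1-WT and 786 and 712 in RACK1-Mut and differed by 0.030 ± 0.069 on the log2 scale (edgeR adjusted p = 0.75), which did not pass. PDIA4, CRELD2, HERPUD1, SEL1L and SEC61B did not pass, with log2 fold changes between -0.12 for PDIA4 and 0.15 for CRELD2.

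Across the 18 genes that did not pass, log2 fold changes ran from -0.17 to 0.31 and their 95% intervals from -0.40 to 0.58. The 10 ER genes with an ERSE or ERSE-II in the promoter window had 3 higher, 2 lower and a median of 0.14, and the 8 without either had 3 higher, 0 lower and a median of 0.13. Of the 6 genes of the ATF4 arm with TGATGNAA, 4 were higher and 1 was lower. In 35 of the 44 genes the siTARG1 and siControl libraries did not overlap, 27 higher and 8 lower, against 70.0% of all rows, 35.8% higher and 34.2% lower. The change had the same sign in coding sequence and in 3′ UTR for 25 of the 26 genes that passed. PSAT1 fell by 1.36 in coding counts and by 1.40 in the 3′ UTR on the log2 scale, XBP1 by 0.55 and 0.48, and ATF4 rose by 0.39 and 0.46. VLDLR was the exception, at -0.39 in coding sequence and 0.03 in the 3′ UTR.

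A call in 14 of the 26 genes held under every alternative tried, including the loss of any 1 library: ATF4, CEBPG, DDIT4, CHAC1, SESN2, PSAT1, MTHFD2, SLC7A5, EIF2AK4, XBP1, HSPA5, DNAJC3, PDIA6 and EDEM1. The other 12 lost significance under at least 1 alternative, each of them when a single library was left out. The deposited counts kept reads that map to several places, and 8 of the 44 genes have named pseudogenes in the annotation (ATF4, ASNS, PSAT1, PSPH, MTHFD2, SLC7A5, XBP1 and HSPA5), so their levels include an unknown share of shared reads.

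The second comparison asks whether these RNAs differed between cells with wild-type RACK1 and cells with RACK1 mutated at its acceptor sites. In RACK1-Mut against RACK1-WT, 0 of 44 genes passed an adjusted p of 0.05 by edgeR's quasi-likelihood test and 0 by DESeq2, and 0.00713% of all rows did by edgeR. The call depended on the fit: with a replicate block edgeR called 3 genes, SLC7A5 (adjusted p = 0.00059), ASNS (0.044) and DDIT3 (0.0497), and with only these 4 libraries fitted it called 2, SLC7A5 (0.0052) and ASNS (0.022), all lower in RACK1-Mut. Over all rows the block called 72 of 14024, the separate fit 49 of 13606 and DESeq2 17 of 14024. At an unadjusted p under 0.05 there were 8 of 44 (18.2%), against 4.90% of all rows. The ATF4 arm had a median log2 fold change of -0.16 and 19 of its 22 genes were lower in RACK1-Mut, while over all rows the median was 0.0047. The ER chaperone arm had a median of -0.026 with 10 of 18 lower. In the ATF4 arm the 2 RACK1-Mut libraries lay below both RACK1-WT libraries for 17 genes and above both for 2. Over all 44 genes 23 lay below, against 18.5% of all rows, and 5 lay above, against 19.3%, or 28 of 44 together against 37.8%. The 19 of 22 held under every alternative except coding-sequence counts, where it was 18.

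The 8 genes at an unadjusted p under 0.05 were mostly amino acid genes and stress effectors, and none passed the adjusted threshold in the fit of all 8 libraries, though SLC7A5, ASNS and DDIT3 did with a replicate block and the first 2 of these in the separate fit. CHAC1 was lower in both RACK1-Mut libraries at 7.33 and 6.90 CPM than in RACK1-WT at 9.19 and 9.97, with a log2 fold change of -0.43 ± 0.12 on the log2 scale (unadjusted p = 0.0039, edgeR adjusted p = 0.65). SLC7A5 differed between its RACK1-Mut replicates, at 214 and 300.1 CPM against 363 and 367 in RACK1-WT, with a change of -0.51 ± 0.15 on the log2 scale (unadjusted p = 0.0041, edgeR adjusted p = 0.65). Without RACK1-Mut replicate 1 the SLC7A5 log2 fold change was -0.28, and without replicate 2 it was -0.77. PSAT1 had a change of -0.26 ± 0.086 on the log2 scale (unadjusted p = 0.0097, edgeR adjusted p = 0.83), DDIT3 of -0.28 ± 0.094 on the log2 scale (unadjusted p = 0.011, edgeR adjusted p = 0.86) and ASNS of -0.30 ± 0.12 on the log2 scale (unadjusted p = 0.022, edgeR adjusted p = 0.98). DDIT4 had a change of -0.30 ± 0.13 on the log2 scale (unadjusted p = 0.033, edgeR adjusted p = 1) and SHMT2 of -0.18 ± 0.078 on the log2 scale (unadjusted p = 0.04, edgeR adjusted p = 1). DNAJB9, a BiP co-chaperone gene, was the 1 gene of the 8 with the higher level in RACK1-Mut, at 39.7 and 35.5 CPM against 32.9 and 29.3, a change of 0.27 ± 0.10 on the log2 scale (unadjusted p = 0.013, edgeR adjusted p = 0.86).

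ATF4 mRNA stood at 320.3 and 324 CPM in RACK1-WT and 311 and 314 in RACK1-Mut, a change of -0.044 ± 0.062 on the log2 scale (unadjusted p = 0.5, edgeR adjusted p = 1) and a 95% interval from -0.18 to 0.090. The sensors gave log2 fold changes of -0.10 for ATF6, -0.086 for ERN1, 0.0038 for EIF2AK3 and 0.067 for EIF2AK4. Libraries of both groups overlapped for ERN1, EIF2AK3 and EIF2AK4, and the RACK1-Mut libraries lay lower for ATF6. XBP1 had a log2 fold change of 0.072 and HSPA5 of -0.038. The 95% intervals of all 44 genes lay within a 2-fold change and those of 41 within 1.5-fold, the outermost bounds being -0.82 for SLC7A5 and 0.48 for DNAJB9. Interferon-stimulated genes moved with the ATF4 arm: 10 of 10 tested were lower in RACK1-Mut with a median of -0.39. Of these 9 had an unadjusted p under 0.05, against 4.90% of all rows, and 0 passed the adjusted threshold. RACK1 itself stood at 1762 and 1898 CPM in RACK1-WT and at 1397 and 1454 in RACK1-Mut. The part of these shifts in the values of the ATF4 arm was not tested.

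**Figure D3:**
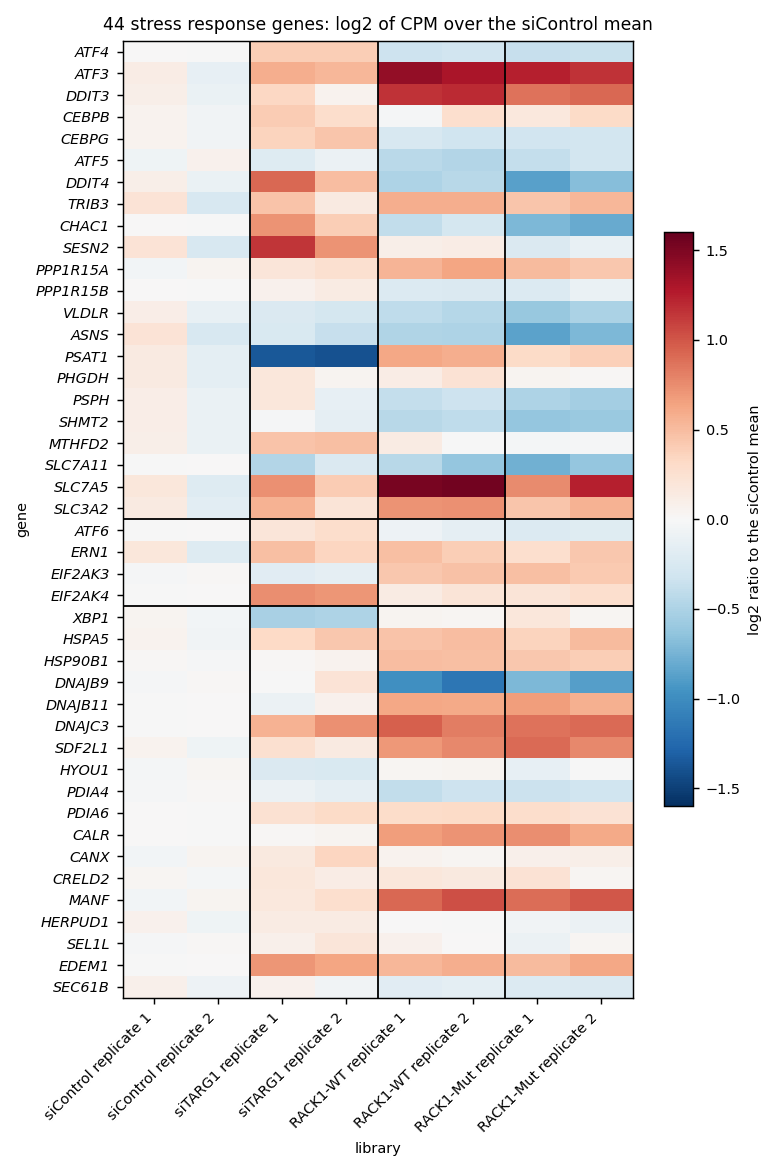
Colour gives the log2 ratio of CPM to the siControl mean for each gene (rows, by arm and role) in each of the 8 libraries (columns), from blue (lower) to red (higher). The siTARG1 columns hold the darkest blue cells for PSAT1, and the 4 columns of the RACK1 lines are red for ATF3, DDIT3, SLC7A5 and MANF.

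The siTARG1 effect and the RACK1-Mut effect, each taken against its own control, differed at an adjusted p under 0.05 for 19 of 44 genes (43.2%), against 32.4% of all rows, by edgeR's quasi-likelihood test of the interaction. For 17 of the 19 the siTARG1 effect was the higher one (16.1% of all rows) and for 2, PSAT1 and XBP1, the lower (16.3%). In the ATF4 arm 11 of 22 were higher and 1 lower, together 54.5% of the arm. In the ER chaperone arm 4 of 18 were higher and 1 lower, together 27.8%, which was below the 32.4% of all rows. Higher values were also found for 2 sensors. The mTORC1 regulators SESN2 and DDIT4 differed by 1.22 ± 0.21 and 1.02 ± 0.18 on the log2 scale, SLC7A5 by 1.08 ± 0.21 and CHAC1 by 1.00 ± 0.17. In these 4 genes the siTARG1 value was positive and the RACK1-Mut value negative, so both terms add to the difference. For EIF2AK4, EDEM1, DNAJC3, HSPA5 and XBP1 the RACK1-Mut log2 fold change lay between -0.038 and 0.072, and the difference was close to the siTARG1 effect itself. ASNS had a log2 fold change of -0.30 in both comparisons, the siTARG1 value ranging from -0.51 to -0.035 when 1 library was left out, and its difference of -0.0070 did not pass (95% interval -0.36 to 0.34).

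RACK1-WT and siControl cells differ in the RACK1 knockdown and re-expression, in transduction, in antibiotic selection, in doxycycline, in siRNA transfection and in experiment. These cannot be told apart, so the following levels are a description of both culture systems. This comparison uses the same siControl libraries as siTARG1. In RACK1-WT against siControl 32 of 44 genes passed (72.7%), against 63.3% of all rows, with 19 higher and 13 lower (31.9% and 31.4% of all rows). The ATF4 arm split, 7 higher and 11 lower. SLC7A5 had the largest change at 1.53 ± 0.15 on the log2 scale (edgeR adjusted p = 9e-07), followed by ATF3 at 1.34 ± 0.14 on the log2 scale (edgeR adjusted p = 1.3e-06) and DDIT3 at 1.17 ± 0.10 on the log2 scale (edgeR adjusted p = 1.8e-07), while ATF4 mRNA was lower at -0.32 ± 0.062 on the log2 scale (edgeR adjusted p = 0.00048). Higher log2 fold changes were also seen for SLC3A2 at 0.72, PSAT1 at 0.60, PPP1R15A at 0.59 and TRIB3 at 0.58. The lower ones, besides ATF4, ran from -0.23 for PPP1R15B to -0.53 for SLC7A11.

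The ER chaperone arm had 9 genes higher and 2 lower in RACK1-WT against siControl. MANF had the largest increase of the arm at 0.98 ± 0.079 on the log2 scale (edgeR adjusted p = 1.2e-07), and DNAJC3 followed at 0.89 ± 0.092 on the log2 scale (edgeR adjusted p = 1.5e-06). SDF2L1, part of an ER chaperone complex with DNAJB11, stood at 9.98 and 9.16 CPM in siControl, 11.5 and 10.6 in siTARG1, 15.5 and 16.2 in RACK1-WT and 17.9 and 16.3 in RACK1-Mut, a log2 fold change of 0.73. DNAJB11 stood at 98.2 and 99.7 CPM in siControl, 93.0 and 104 in siTARG1, 152 and 150.1 in RACK1-WT and 157 and 147 in RACK1-Mut, a log2 fold change of 0.61. CALR, HSP90B1 and HSPA5 had log2 fold changes of 0.69, 0.49 and 0.47. DNAJB9 went the other way at 64.3 and 65.8 CPM in siControl, 64.8 and 76.1 in siTARG1, 32.9 and 29.3 in RACK1-WT and 39.7 and 35.5 in RACK1-Mut, a change of -1.07 ± 0.10 on the log2 scale (edgeR adjusted p = 3.1e-07). PDIA4, a disulfide isomerase, was the other lower gene at 495 and 509 CPM in siControl, 469 and 456 in siTARG1, 383 and 400.5 in RACK1-WT and 394 and 401 in RACK1-Mut, a log2 fold change of -0.36. Among the sensors EIF2AK3, ERN1 and EIF2AK4 were higher, with log2 fold changes of 0.45, 0.43 and 0.17.

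Length-scaled levels spread widely over the 44 genes. In siControl, the chaperones CANX (296 CPM per kilobase of exon), HSP90B1 (270.3) and CALR (246) were highest, then PDIA4 (173), ATF4 (160.0), PDIA6 (153) and XBP1 (148). At the other end were ERN1 (0.760), ATF3 (1.36), DNAJC3 (2.70) and ATF5 (2.92). Libraries of adjacent genes in this order overlapped in 20 of 43 pairs, among them PDIA6 with XBP1 and XBP1 with PHGDH, while those from CANX down to PDIA6 stood clear of each other. In siTARG1 XBP1 stood at 105 and ATF4 at 209.9 CPM per kilobase. The scaling uses the annotated exon length and takes no account of which isoform was made.

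**Figure D4:**
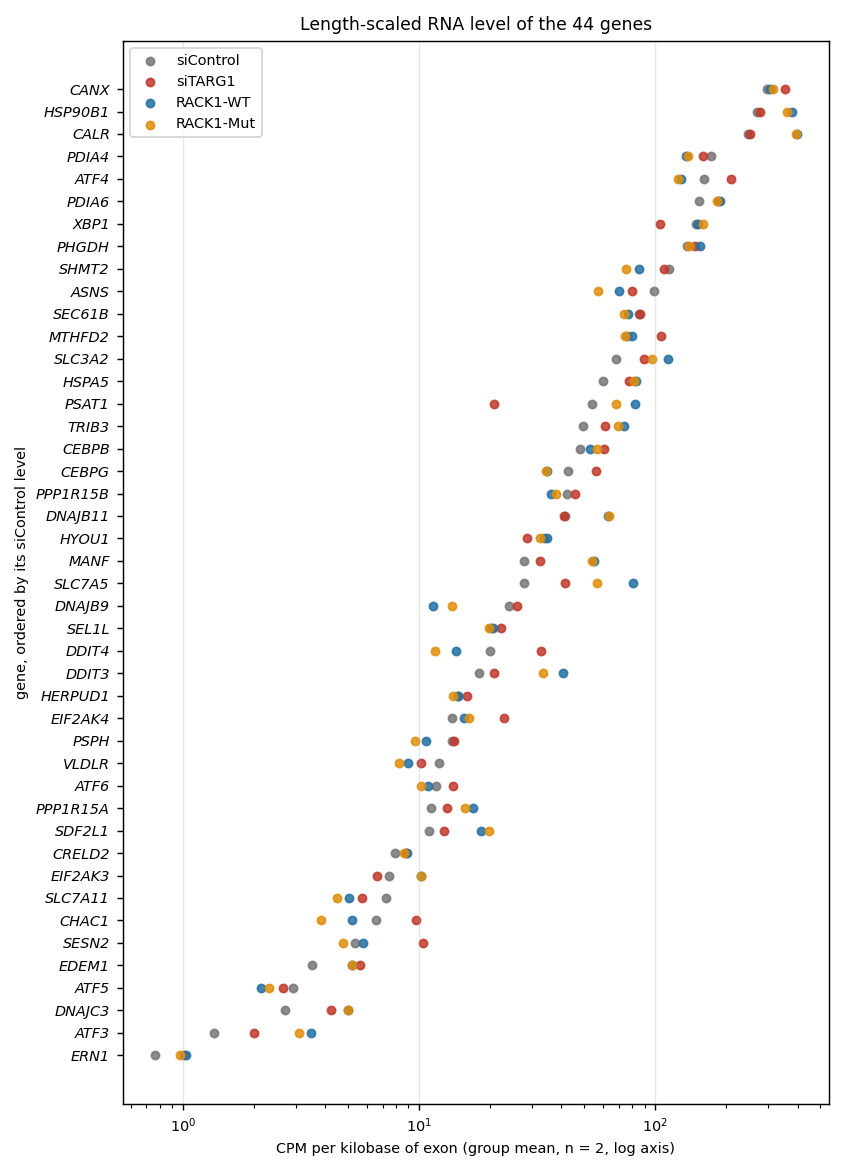
Mean CPM per kilobase of exon (x axis, log scale, n = 2 libraries a group) of each of the 44 genes (y axis, ordered by the siControl mean) in the 4 groups. CANX is at the top and ERN1 at the bottom, and the PSAT1 point of siTARG1 lies left of the other 3 groups.

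Other genes of both pathways, from lists that hold none of the 44, moved in both directions in siTARG1. These lists too were chosen with earlier results of these data known. The shares that passed were 57.1% of other ATF4 pathway genes, 45.9% of other ER genes and 28.6% of other eIF2 and sensor genes. Over all rows 46.6% passed, 23.5% higher and 23.1% lower. Of 28 other ATF4 pathway genes 8 were higher and 8 lower, with a median log2 fold change of -0.033. The highest were GDF15, a secreted stress cytokine, at 1.08 and ALDH1L2, a mitochondrial folate enzyme, at 0.76, and the lowest were EIF4EBP1, a translation repressor, at -1.79 and NARS, asparaginyl-tRNA synthetase, at -0.91. Of 37 other ER folding and degradation genes 11 were higher and 6 lower, with a median of 0.031. ERO1L and ERO1LB, oxidases that recharge disulfide isomerases, were the highest at 1.31 and 0.83, and SPCS3, a signal peptidase subunit, and EDEM3, a relative of EDEM1, were the lowest at -1.85 and -1.07. Of 21 other eIF2 and sensor pathway genes 3 were higher and 3 lower, with a median of 0.019. ATF6B, a relative of ATF6, and MBTPS2, a protease that cleaves ATF6, were the highest at 0.88 and 0.52, and PPP1CC, a phosphatase subunit, and EIF2B2, a subunit of the eIF2 exchange factor, were the lowest at -0.63 and -0.46. In RACK1-Mut against RACK1-WT none of the 86 genes on these lists passed by edgeR's quasi-likelihood test. At an unadjusted p under 0.05 there were 6 of 28, 1 of 37 and 0 of 21, against 4.90% of all rows. Of the 28 ATF4 pathway genes 23 were lower in RACK1-Mut, with a median of -0.11.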

How the data were processed

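RNA was extracted from cell lysates, depleted of rRNA and sequenced as stranded libraries in 8 samples (4 groups, 2 replicates each). The authors removed rRNA reads with Bowtie 1.1.2, aligned to GRCh37 with TopHat2 2.1.1, kept reads with up to 64 hits and counted with Plastid on Gencode release 24, and the deposited estimated counts per gene row need not be whole. RPKM columns in the same files were not used, and ribosome footprint libraries were not analysed here. Exon counts were rounded, and rows were named from Gencode release 44 lifted to GRCh37, which matched 94.7% of 36595 transcript names; 553 of 20165 rows, with 1.19% of counts, had no gene name, and 452 held several symbols.

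All 8 libraries were fitted as 4 groups with edgeR 4.0.16 (TMM normalization, filterByExpr, quasi-likelihood test, R 4.3.3), with Benjamini-Hochberg adjustment over 14024 rows and a threshold of 0.05. Each group had 2 libraries and the fit 4 residual degrees of freedom. SE was the log2 fold change over the root of F, and 95% intervals used the moderated degrees of freedom. CPM is TMM-normalized. The script was tested on simulated data. Alternatives were RLE size factors, DESeq2 1.42.0, other count filters, coding-sequence counts, rows summed by symbol, a replicate block, separate fits and the loss of each library. The regulators and up to 30 genes past the threshold a comparison, by size of change, were given with every library's value, and other pathway lists by count, median and their 2 highest and 2 lowest genes past it. The 44 genes and all lists were chosen with earlier results of these data known. Promoter letters were searched on both strands of RefSeq windows. On the lists, SPCS1 and EIF2B5 had no row, and 10 of 12 interferon-stimulated genes were tested.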

Additional observations from a re-analysis of the deposited data

Results flagged for a closer look

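In 19 of the 44 genes (43.2%, against 32.4% of all rows) the siTARG1 effect (against siControl) and the RACK1-Mut effect (against RACK1-WT) differed at an adjusted p under 0.05 by edgeR's quasi-likelihood test of the interaction, which is what marked them, and 13 of the 19 did so under every alternative. Values are differences of log2 fold changes, siTARG1 minus RACK1-Mut. Among transcription factors they were 0.71 for ATF3, 0.47 for DDIT3, 0.44 for ATF4 and 0.41 for CEBPG. Among feedback and stress effectors they were 1.22 for SESN2, 1.02 for DDIT4, 1.00 for CHAC1 and 0.34 for PPP1R15A. Among genes of amino acid metabolism and transport they were 1.08 for SLC7A5, 0.61 for SLC3A2, 0.57 for MTHFD2 and -1.12 for PSAT1. For the sensors they were 0.66 for EIF2AK4 and 0.33 for ATF6. In the ER arm they were 0.66 for EDEM1, 0.64 for DNAJC3, 0.41 for HSPA5, 0.32 for PDIA6 and -0.58 for XBP1.

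DDIT3 did not pass in either comparison alone, at 0.20 and -0.28 on the log2 scale, values of opposite sign, while their difference passed. ATF3, DDIT3, PPP1R15A, SLC3A2, ATF6 and PDIA6 lost the call under at least 1 alternative, and each did so when 1 library was left out; with 1 library left out, their lowest values were 0.60 (ATF3), 0.33 (DDIT3), 0.30 (PPP1R15A), 0.43 (SLC3A2), 0.28 (ATF6) and 0.28 (PDIA6). Both effects come from separate experiments with their own controls, and what differs between the experiments cannot be told apart from the difference of the effects.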

How the results depend on the processing

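The number of the 44 genes past the threshold stayed within 1.5 times its value under all alternatives for siTARG1 against siControl (26 as reported, 22 to 29 otherwise, 21 to 23 when 1 library was left out), RACK1-WT against siControl (32; 30 to 32 and 29 to 30) and the difference of effects (19; 17 to 24 and 16 to 21). For RACK1-Mut against RACK1-WT it was 0, but 3 with a replicate block (SLC7A5, adjusted p = 0.00059, ASNS, 0.044, and DDIT3, 0.0497) and 2 when only its 4 libraries were fitted (SLC7A5, 0.0052, and ASNS, 0.022), all lower in RACK1-Mut by edgeR's quasi-likelihood test. Over all rows these fits called 72 of 14024 and 49 of 13606, against 1 of 14024 as reported. The cause was not tested. The labels do not say whether replicate numbers pair the libraries. Over the rows tested, log2 differences between replicates 1 and 2 correlated at 0.26 between siControl and siTARG1. Between RACK1-WT and RACK1-Mut they correlated at 0.028. In the ATF4 arm 19 of 22 genes in siControl and 16 of 22 in siTARG1 were higher in replicate 1. Whether a replicate effect was shared by the siRNA groups was not tested. In siTARG1 the block gave 29 calls, adding DDIT3, EIF2AK3 and TRIB3. Calls over all rows rose as well, to 7802 of 14024 with the block from 6537 without it. TRIB3 was also gained with RLE size factors, DESeq2 and no filter. With 1 library left out, the log2 fold change ranged from 0.11 to 0.57 for TRIB3, 0.056 to 0.32 for DDIT3 and -0.026 to 0.29 for PHGDH. These 3 were thus not stable to the loss of a library.

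Signs turned only for genes that had not passed. With coding-sequence counts the siTARG1 value was -0.037 for PSPH, 0.011 for DNAJB11 and -0.018 for SEC61B, and with no filter SEC61B was -0.0058. With 1 library left out the values ranged from -0.026 to 0.29 for PHGDH, -0.14 to 0.17 for PSPH, -0.18 to 0.039 for SHMT2, -0.015 to 0.23 for DNAJB9, -0.099 to 0.074 for DNAJB11 and -0.066 to 0.097 for SEC61B.

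Calls in siTARG1 lost without siControl replicate 1 were ASNS, ATF6, CANX, MANF, PPP1R15A and VLDLR, and without replicate 2 ATF3, CEBPB, ERN1, HYOU1 and SLC3A2. Without siTARG1 replicate 1 ERN1, SLC3A2 and SLC7A11 were lost, and without replicate 2 ASNS, ATF6, CANX, MANF and PPP1R15A. A lone library left in a group is assumed to vary like the other groups. Each gene had at least 83 counts in each library.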

Other observations

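Stress genes outside both pathways moved in both directions in siTARG1 against siControl, where 23.5% of all rows passed higher and 23.1% lower. Of 11 cytosolic heat shock chaperones 3 were higher and 3 lower, with a median log2 fold change of -0.019. Together these were 54.5% of the 11, against 46.6% of all rows. HSPA1A and HSPA1B, near-identical copies that share reads, were higher at 0.35 each, and BAG3 and HSPA8 were lowest at -0.80 and -0.64. In RACK1-Mut against RACK1-WT 0 of the 11 passed by edgeR's quasi-likelihood test. An unadjusted p under 0.05 was seen for 2 of them, against 4.90% of all rows. Of 10 interferon-stimulated genes tested 1, IFIT3, was higher in siTARG1, at 0.21, against 23.5% of all rows. All 10 were lower in RACK1-WT than in siControl, with a median log2 fold change of -1.29, a comparison in which 63.3% of all rows passed and in which the culture systems cannot be told apart.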
